A study of Mus musculus with 4 samples.

Results

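Neuropeptides that seizures are known to change in the hippocampus were followed through single-nucleus RNA sequencing of hippocampi from Cyfip2+/R87C knock-in (KI) mice and their wild-type (WT) littermates. The set held 10 genes (Npy, Penk, Pdyn, Cck, Tac1, Tac2, Gal, Crh, Nts and Adcyap1), chosen by symbol. They were chosen with earlier results of these data known, so counts of calls among them, beside the share of all genes, are a description. All 10 were among the 21700 genes with enough counts to be tested over all nuclei. There were 2 WT and 2 KI mice on the C57BL/6N background, aged 28 postnatal weeks, with 1 library of frozen hippocampus from both hemispheres for each mouse. The KI mice carried 1 allele with the R87C change of Cyfip2, a subunit of the actin-regulating WAVE complex, in all tissues, and the treatment label of KI replicate 2 reads R88C where that of KI replicate 1 reads R87C. The sex of each mouse was not stated in the labels. The allele is a point change that counts at the 3' end of transcripts do not show, so that the level of Cyfip2 (CPM of 182, 180.1, 173 and 171 in WT and then KI libraries) checks no label. CPM are the counts of a gene scaled to a common total of all counts of that class of nuclei in its library.

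Neuropeptides are cut from precursor proteins, packed into dense-core vesicles and released mainly during repeated firing, after which they act on G protein-coupled receptors. In the hippocampus, neuropeptide Y (Npy) and somatostatin are made by dendrite-targeting interneurons, cholecystokinin (Cck) by basket cells that carry the cannabinoid receptor Cnr1, and enkephalin (Penk) and dynorphin (Pdyn) by granule neurons of the dentate gyrus (DG), whose axons are the mossy fibres. Seizures in rodents are known to raise Npy and Penk in granule neurons and to lower their dynorphin, which makes these genes usual readouts of hippocampal hyperactivity.

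After removal of 345 barcodes with few genes or much mitochondrial RNA and of 3452 predicted doublets (6.24% of barcodes), 51843 nuclei remained, between 11898 and 14877 a library, with median depths of 3862 to 4687 unique molecular identifiers (UMIs, one per captured transcript). Any 2 libraries shared 35 to 57 cell barcodes, against 41.9 to 54.2 for random draws from the barcode list. Classes were named from marker genes that did not include the 10 peptides, and the peptides were also left out of the clustering. They gave 12285 DG granule neurons, 7748 CA1 and 2922 CA3 pyramidal neurons, 238 mossy cells, 377 fibroblasts and 4712 inhibitory neurons, among them 1062 Sst, 944 Pvalb, 493 Vip, 798 Lamp5 and 707 Cnr1 interneurons. Different clusters held most granule neurons of each genotype: cluster 0 held 96.4% of WT and 16.97% of KI granule neurons, and cluster 1 held 3.57% of WT and 83.03% of KI. In CA1, cluster 5 held 0.8601% of WT and 63.03% of KI nuclei, and cluster 6 held 45.6% and 3.31%. In CA3, cluster 8 held 73.8% of WT and 14.5% of KI nuclei, and cluster 25 held 0.348% and 51.9%.

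Promoters are shown for Npy, Cck and Tac1, which had calls and a window in the RefSeq table and were chosen after their values were seen, to show which cAMP-responsive letters stand before the start of transcription. Tac2 and Gal also had a call and a window and are not shown. The 250 bases before the RefSeq start are given 5' to 3' on the gene's strand, from GRCm38.p6. They lie at chr6:49822460-49822709 (+) for Npy, chr9:121495695-121495944 (−) for Cck and chr6:7554811-7555060 (+) for Tac1. Capitals mark TGCGTCA, the core of the enkephalin cAMP-responsive element:
Npy: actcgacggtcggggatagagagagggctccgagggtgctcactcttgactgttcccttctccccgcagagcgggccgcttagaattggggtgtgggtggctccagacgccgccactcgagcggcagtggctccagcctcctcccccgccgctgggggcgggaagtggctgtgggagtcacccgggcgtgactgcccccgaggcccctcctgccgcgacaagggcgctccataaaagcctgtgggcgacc
Cck: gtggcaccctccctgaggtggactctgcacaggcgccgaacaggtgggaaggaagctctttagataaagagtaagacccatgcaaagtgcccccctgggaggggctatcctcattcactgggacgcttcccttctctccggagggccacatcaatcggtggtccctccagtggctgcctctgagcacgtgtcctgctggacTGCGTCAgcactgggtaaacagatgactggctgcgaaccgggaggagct
Tac1: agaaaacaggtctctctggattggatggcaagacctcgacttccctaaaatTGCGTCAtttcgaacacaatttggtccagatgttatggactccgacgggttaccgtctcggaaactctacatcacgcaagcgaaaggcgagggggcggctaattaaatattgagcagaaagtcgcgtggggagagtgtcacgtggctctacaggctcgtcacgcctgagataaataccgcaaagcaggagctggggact
TGCGTCA began 49 bases before the start of Cck and 199 before that of Tac1, and it was not among the letters of the Npy window on either strand. These distances are from the RefSeq starts, and in the GENCODE annotation on mm10 the Tac1 gene starts further upstream, at chr6:7554879, inside the window printed here. Of 32851 mouse promoters of 250 bases before to 50 after the start, 2.12% held TGCGTCA on either strand, 1.79% held the full element TGACGTCA, 20.8% held its first letters TGACG, which overlap both, and 5.20% held the AP-1 letters TGACTCA. The table held 8 of the 10 members, without Penk and Crh. On mm10, the genes of the opioid peptides lie at chr4:4133531-4138819 (−) for Penk and chr2:129686565-129699844 (−) for Pdyn.

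Peptide mRNA is abundant, and in droplet libraries RNA released from broken cells is counted in nuclei that do not make it. The level of such free RNA was estimated in each library as the UMIs per nucleus of oligodendrocytes and microglia together, cells in which none of the 10 peptides is known as a product of note. That all of their peptide UMIs are free RNA is an assumption that was not tested, since empty droplets were not used here. The oligodendrocytes, too, lay in different clusters, as cluster 2 held 98.6% of those of WT and 8.55% of those of KI, and cluster 3 held 1.37% and 91.5%. The microglia were 1 cluster, and by themselves they held Npy at 0.0743 and 0.0673 UMIs per nucleus in WT libraries and at 0.121 and 0.131 in KI. For Npy this level was 0.0637 and 0.0655 UMIs per nucleus in WT libraries against 0.138 and 0.131 in KI, and for Penk 0.0136 and 0.00976 against 0.0659 and 0.0518. For Cck it was 0.354 and 0.339 in WT libraries against 0.205 and 0.274 in KI. The free RNA of these peptides thus differed between the genotypes in the same directions as the levels in neurons described next, and the ratio to free RNA is given beside most results.

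**Figure D1:**
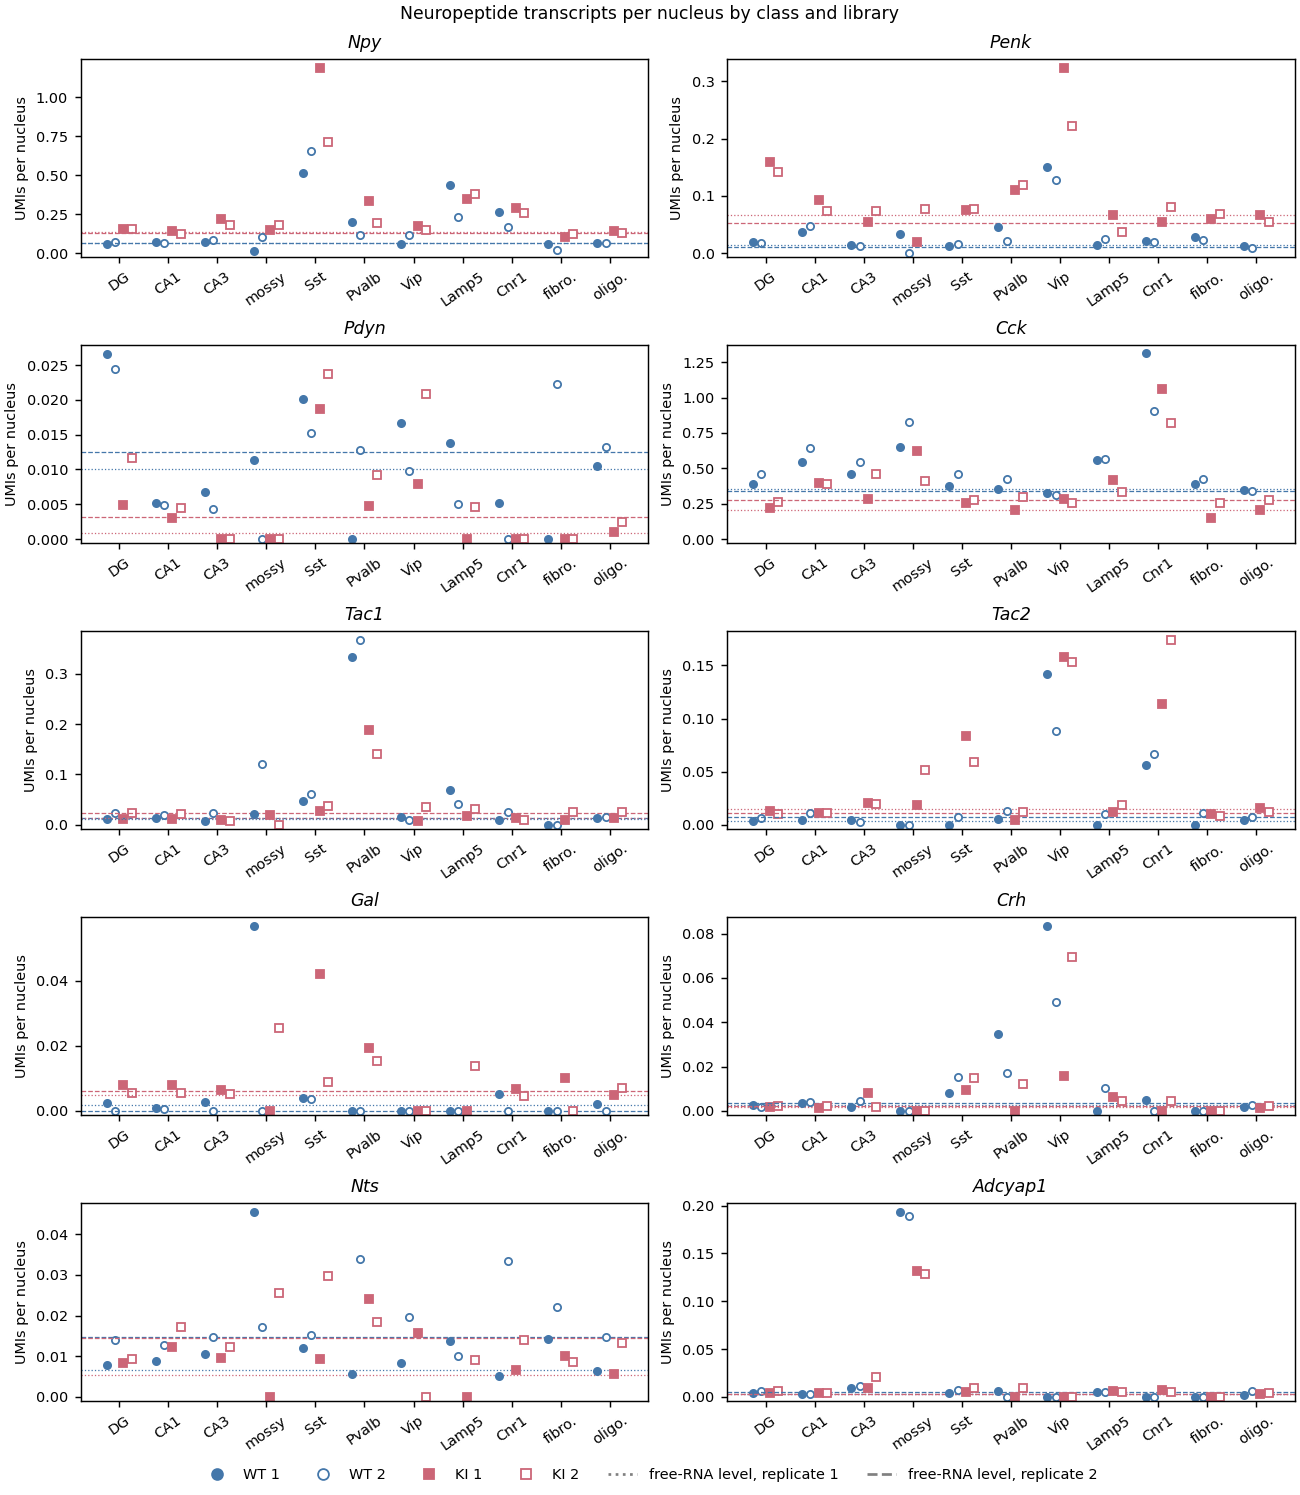
UMIs per nucleus (vertical axes) of each of the 10 peptides by cell class (horizontal axes), with 1 point per library (circles WT, squares KI, filled replicate 1, open replicate 2) and lines at each library's free RNA level. Npy in DG granule and CA1 neurons sits at 0.9401 to 1.18 times its free RNA, while in Sst interneurons it sits at 5.48 to 10.02 times.

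Classes were ordered by mean UMIs per nucleus above free RNA over the 4 libraries. Only Npy, Tac1 and Adcyap1 had a leading class whose libraries were clear of every other named class. Npy was led by Sst interneurons (0.514 to 1.19 UMIs per nucleus, lowest to highest library), whose range lay above that of the next subtype, Lamp5 (0.228 to 0.436), while Lamp5, Cnr1 (0.167 to 0.289) and Pvalb (0.119 to 0.337) overlapped. Cck was led by Cnr1 interneurons (0.817 to 1.31), followed by mossy cells (0.4103 to 0.828), whose range reached into it. A cluster of 342 nuclei, left without a cell type name because haemoglobin genes (Hbb-bs, Hba-a1 and Hba-a2) stood beside Ttr among its leading genes, held Cck at 0.31 to 0.855 UMIs per nucleus. Tac1 was led by Pvalb interneurons (0.141 to 0.366) and Adcyap1 by mossy cells (0.128 to 0.193), both clear of every other named cell type.

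Tac2 was shared by Vip (0.0882 to 0.157) and Cnr1 interneurons (0.0564 to 0.174), which did not differ beyond their spread. Crh was led by Vip interneurons (0.0157 to 0.0833), with some overlap with Pvalb cells (0 to 0.0345). Penk was led by Vip interneurons (0.127 to 0.323), whose range overlapped that of granule neurons (0.0177 to 0.159), where the WT and KI libraries stood far apart. Pdyn was led by Sst interneurons (0.0153 to 0.0237) and granule neurons (0.00483 to 0.0266), which overlapped, and the order depended on genotype. Its mean excess over free RNA was higher in granule neurons in WT (0.0142 UMIs per nucleus against 0.00635 in Sst cells) and lower there in KI (0.00627 against 0.0192), from 9 and 12 UMIs in WT and KI Sst cells. Gal and Nts had no named class whose 4 libraries all stood above those of the others.

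Penk, the precursor of the enkephalins that act on delta and mu opioid receptors, was the member with the largest called rise in DG granule neurons. WT libraries held 4.82 and 3.84 CPM (86 and 58 UMIs) against 32.8 and 32.7 CPM (394 and 317 UMIs) in KI. Both KI libraries lay far above both WT libraries. The log2 fold change of KI over WT was 3.05 ± 0.17 (SE, n = 2 mice a group), with an adjusted p of 0.00142 over all genes tested by edgeR.

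A Penk UMI was found in 1.72 and 1.68% of WT and 13.97 and 12.6% of KI granule neurons, at median depths of 3723, 4159, 4403 and 3969 UMIs. In oligodendrocytes, at median depths of 1336 to 1469 UMIs, the share was 1.25 and 0.825% for WT and 6.47 and 5.27% for KI. The granule neurons thus held more Penk than free RNA gave in every library, at 1.47 and 1.81 times its level in WT and at 2.41 and 2.74 times in KI. With every nucleus thinned to 2000 UMIs, the shares in granule neurons were 0.85, 0.851, 6.83 and 7.02%, so the KI libraries stayed above the WT libraries at equal depth. Few nuclei held many copies: 8 and 4 KI granule neurons had at least 3 UMIs, against 2 and 0 in WT.

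After the free RNA of each library was subtracted, the excess of Penk was 0.00642 and 0.00794 UMIs per granule neuron in WT and 0.0928 and 0.0903 in KI, and Penk kept its call, at a log2 fold change of 3.72 (adjusted p = 0.01496 by edgeR). Of the 3 other members that could still be tested, Npy, Pdyn and Cck, none kept or gained a call in granule neurons (adjusted p = 0.2105, 0.3599 and 0.274). The call for Penk also held whichever single library was left out. Within cluster 1, which was mostly KI, the few WT granule neurons stood at 35.9 and 14.5 CPM (21 and 8 UMIs over 144 and 126 nuclei), beside 3.77 and 3.43 CPM for WT nuclei of cluster 0. KI nuclei of cluster 1 stood at 34.2 and 36.6 CPM. A Penk UMI was found in 14.6 and 14.03% of them, against 6.94 and 5.56% of WT nuclei of cluster 1. KI nuclei of cluster 0 stood at 17.8 and 21.2 CPM, from 18 and 52 UMIs.

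Outside the granule neurons, CA1 neurons held Penk at 6.42 and 7.11 CPM for WT against 11.6 and 11.2 for KI, at 1.401 to 4.91 times free RNA, and this passed (log2 0.85 ± 0.18, adjusted p = 0.0422 by edgeR). The call was lost without WT replicate 1 (adjusted p = 0.298) or WT replicate 2 (0.162), with library totals as scaling (0.0544) and in DESeq2 (0.0817). With free RNA subtracted the sign turned, to a log2 fold change of −0.54 (adjusted p = 0.3995).

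In CA3 neurons, whose WT nuclei lay mostly in cluster 8 and whose KI nuclei lay mostly in cluster 25, Penk stood at 1.69, 1.37, 5.32 and 8.902 CPM in WT and then KI libraries (log2 2.24 ± 0.39, adjusted p = 0.0193). These CA3 levels were 0.816 to 1.43 times free RNA, and once it was subtracted too few counts were left in CA3 for a test. Penk also passed in oligodendrocytes, which are part of the free RNA estimate (log2 2.57 ± 0.28, adjusted p = 0.00345).

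The rise of Penk differed between cell classes by the test of the difference itself, in which edgeR fitted both classes with the library as a block. In DG granule neurons the log2 effect was 2.21 ± 0.20 above that in CA1 (adjusted p = 5.07e-06), and 1.46 ± 0.24 above that in inhibitory neurons (adjusted p = 0.00773, and 0.0614 without WT replicate 2). The difference from CA3 was 0.81 ± 0.41 and did not pass (adjusted p = 0.276, and 0.0481 without KI replicate 2). Over all genes, 14% passed in the first of these tests, 4.79% in the second and 9.93% in the third.

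Among the named interneuron subtypes, Penk was most above free RNA in the Vip cells. They held 38.9 and 30.7 CPM in WT (18 and 13 UMIs) and 69.6 and 53.9 CPM in KI (41 and 32 UMIs), which is 11.02, 13.1, 4.902 and 4.29 times the free RNA level. Both KI libraries were higher, but the difference did not pass (log2 0.90 ± 0.35, adjusted p = 0.328). Penk passed in Sst cells, at 1.92, 2.404, 8.37 and 11.2 CPM in WT and then KI libraries (log2 2.28 ± 0.51, adjusted p = 0.0404). That call rests on 3 and 4 UMIs in the WT libraries, at 0.885 to 1.56 times free RNA. It was lost without WT replicate 1 or WT replicate 2 (adjusted p = 0.633 and 0.557), and too few counts were left for a test once free RNA was subtracted. In Pvalb cells, at 6.59, 3.3, 13.6 and 17.2 CPM, Penk did not pass (log2 1.79 ± 0.45, adjusted p = 0.06102), but it did without WT replicate 1 (0.0443). Pvalb cells held Penk at 1.68 to 3.38 times free RNA.

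Pdyn, the precursor of dynorphin that acts on kappa opioid receptors, was lower in KI granule neurons without passing the threshold. WT libraries held 6.39 and 5.29 CPM (114 and 80 UMIs) and KI libraries 0.999 and 2.68 CPM (12 and 26 UMIs). Both KI libraries were below both WT libraries (log2 −1.58 ± 0.41, adjusted p = 0.0606 by edgeR). A Pdyn UMI was found in 2.59 and 2.35% of WT and 0.483 and 1.17% of KI granule neurons. The share in oligodendrocytes was 1.05 and 1.32% for WT and 0.0952 and 0.2395% for KI, so free Pdyn RNA was lower in the KI libraries as well.

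Granule neurons held 1.95 to 5.797 times the free RNA level of Pdyn in each library, and its excess was 0.0165 and 0.0119 UMIs per nucleus in WT and 0.003999 and 0.00855 in KI. Its side of the threshold was not stable. Pdyn passed without KI replicate 1 (log2 −1.02, adjusted p = 0.00761) and without KI replicate 2 (log2 −2.38, adjusted p = 5.42e-07), without the filter on low counts (adjusted p = 4.72e-04) and in DESeq2 (0.0321). Over all nuclei Pdyn stood at 2.97, 2.48, 0.477 and 1.11 CPM in WT and then KI libraries (adjusted p = 0.0894).

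**Figure D2:**
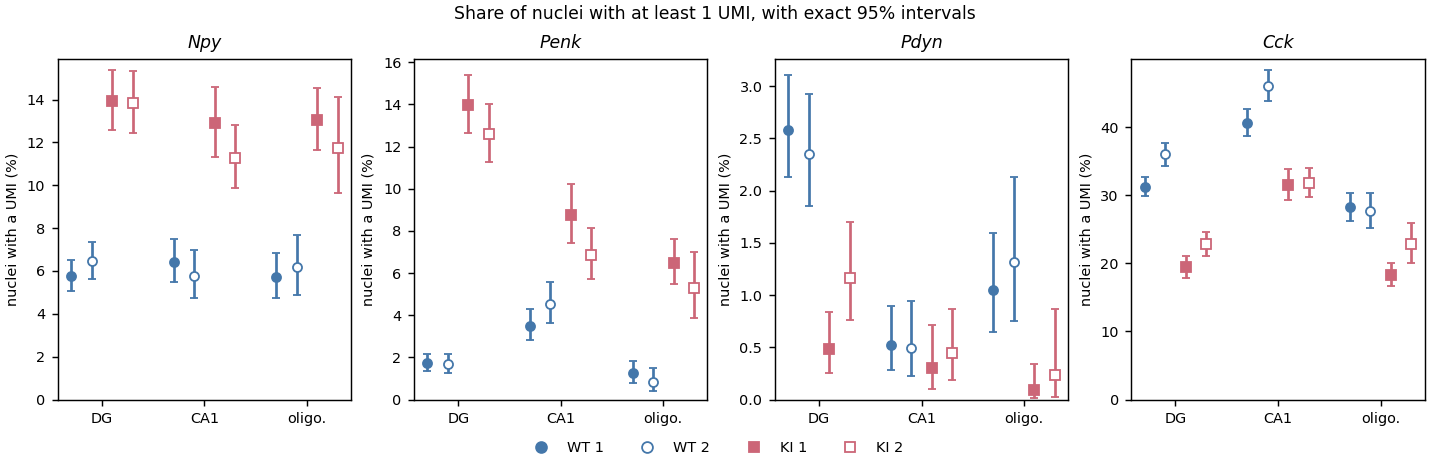
Share of nuclei with at least 1 UMI (vertical axes, percent) of Npy, Penk, Pdyn and Cck in DG granule neurons, CA1 pyramidal neurons and oligodendrocytes (horizontal axes), with 1 point per library and bars for exact 95% binomial intervals, which cover counting error only. Penk in KI granule neurons, at 13.97 and 12.6%, lies above the 6.47 and 5.27% of KI oligodendrocytes, whereas Npy in KI granule neurons, at 13.9 and 13.9%, lies near the 13.04 and 11.7% of KI oligodendrocytes.

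Npy, which dampens glutamate release from mossy fibres and Schaffer collaterals through Y2 receptors, was higher in KI over all nuclei. WT libraries held 17.2 and 16.1 CPM against 33.5 and 31.8 in KI (log2 1.02 ± 0.11, adjusted p = 0.0366 by edgeR). Penk passed as well, at 4.93, 5.13, 17.8 and 17.5 CPM (log2 1.87 ± 0.13, adjusted p = 0.0366). These were 2 calls among the 10 members over all nuclei, where 0.866% of all genes passed. Over all nuclei Npy stood at 1.26 to 1.39 times free RNA and Penk at 1.53 to 2.81 times, and both calls held whichever library was left out.

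In DG granule neurons Npy stood at 14.4 and 14.9 CPM for WT and 31.9 and 35.4 CPM for KI (log2 1.33 ± 0.13, adjusted p = 0.00388), and it passed whichever library was left out. These levels were near the free RNA estimate: per nucleus, granule neurons held 0.9401, 1.05, 1.11 and 1.18 times the free RNA of their library. The share of granule neurons with an Npy UMI (5.75, 6.47, 13.9 and 13.9%) was close to that of oligodendrocytes (5.73, 6.19, 13.04 and 11.7%). With free RNA subtracted Npy did not pass there, at a mean excess of −0.000188 UMIs per nucleus in WT and 0.0195 in KI. Whether granule neurons expressed Npy above free RNA was not tested.

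In the pyramidal neurons, CA1 was near free RNA and CA3 above it. In CA1 Npy stood at 11.9, 9.15, 18.2 and 19.02 CPM (log2 0.91 ± 0.18, adjusted p = 0.0313), which is 0.942 to 1.07 times free RNA, and the call was lost without WT replicate 2 (0.203). In CA3 it stood at 8.71, 8.68, 21.7 and 21.4 CPM (log2 1.39 ± 0.20, adjusted p = 0.00925), at 1.09 to 1.59 times free RNA. With free RNA subtracted, Npy was too low for a test in CA1. In CA3 its mean excess was 0.0117 UMIs per nucleus in WT and 0.0645 in KI, and the log2 fold change after subtraction was 2.52, which did not pass (adjusted p = 0.0681). In oligodendrocytes the same test gave Npy a log2 value of 1.16 ± 0.18 and an adjusted p of 0.0233, where 0.968% of all genes passed.

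Sst interneurons were the class with the most Npy per nucleus. They held 81.8 and 103 CPM in WT (128 and 172 UMIs) and 133 and 104 CPM in KI (254 and 241 UMIs), at 8.07, 10.02, 8.58 and 5.48 times free RNA. Both KI libraries were above both WT libraries, KI replicate 2 only just, and 1 nucleus of KI replicate 1 held 60 of its 254 UMIs. The log2 fold change was 0.49 ± 0.18 and did not pass (adjusted p = 0.201), except without KI replicate 2 (2.46e-04). An Npy UMI was found in 28.9 and 33.6% of WT and 42.5 and 38.3% of KI Sst nuclei. Thinned to 2000 UMIs a nucleus, the shares were 12.2, 19.8, 17.8 and 17.4%, with overlapping groups.

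Lamp5 interneurons, which include the neurogliaform cells, held Npy at 80.9, 43.4, 49.8 and 61.4 CPM in WT and then KI libraries, at 2.496 to 6.84 times free RNA and with overlapping groups (adjusted p = 0.936 by edgeR). Vip interneurons held it at 15.1, 28.3, 37.3 and 35.4 CPM, higher in both KI libraries, from 7, 12, 22 and 21 UMIs and at 0.916 to 1.796 times free RNA, and the difference did not pass (log2 0.84 ± 0.43, adjusted p = 0.533). The effect of the genotype on Npy was larger in granule neurons than in all inhibitory neurons by 0.85 ± 0.17 on the log2 scale (adjusted p = 0.0211), although the granule level was near free RNA. That call was lost without WT replicate 1 (adjusted p = 0.109) or WT replicate 2 (0.133). Against CA1 the difference was 0.44 ± 0.16 (adjusted p = 0.0961) and against CA3 −0.07 ± 0.18 (adjusted p = 0.887), and neither passed, although the former did without KI replicate 1 (0.49, adjusted p = 0.0328).

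Cck, which excites pyramidal cells and many interneurons through the Cckbr receptor, was lower in KI granule and CA1 neurons. Granule neurons held 93.7 and 98.95 CPM in WT libraries and 45.8 and 60.3 CPM in KI libraries (log2 −0.73 ± 0.13, adjusted p = 0.0238 by edgeR). With Npy and Penk this made 3 calls among the 9 members tested in granule neurons, where 9.97% of all genes passed. In CA1 Cck stood at 96.1, 95.1, 49.6 and 58.9 CPM in WT and then KI libraries (log2 −0.73 ± 0.10, adjusted p = 0.0132). The effects in granule and CA1 neurons differed by 0.00735 ± 0.10 (adjusted p = 0.977).

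The levels of Cck in granule neurons were 1.102, 1.34, 1.08 and 0.958 times free RNA, and in CA1 they were 1.41 to 1.93 times. The excess over free RNA in CA1 was 0.194, 0.302, 0.191 and 0.113 UMIs per nucleus in WT and then KI libraries, so both KI values lay below both WT values, that of KI replicate 1 by little. With free RNA subtracted neither call held, but the fitted decreases were no smaller (log2 −3.08, adjusted p = 0.274 in granule neurons, and log2 −0.92, adjusted p = 0.0899 in CA1). The call in granule neurons was also lost without WT replicate 1 (adjusted p = 0.153) or WT replicate 2 (0.213). In CA3 Cck stood at 57.5, 56.5, 28.3 and 55.5 CPM, so that KI replicate 1 alone was low, and the difference did not pass (log2 −0.39 ± 0.24, adjusted p = 0.397). Without KI replicate 2 it did (log2 −0.89, adjusted p = 8.88e-10).

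The Cnr1 interneurons, which include the Cck basket cells, held the most Cck per nucleus of the named classes. They stood at 186 and 124 CPM for WT and 123 and 117 CPM for KI, at 3.71, 2.67, 5.18 and 2.99 times free RNA, and 45.1 to 52% of their nuclei had a UMI. WT replicate 1 stood above the other 3 libraries, which lay close together, and the difference did not pass (log2 −0.28 ± 0.18, adjusted p = 0.609). In Lamp5 interneurons Cck was lower in KI, at 103, 108, 60.3 and 53.9 CPM (log2 −0.79 ± 0.20, adjusted p = 0.0214). That call did not hold without WT replicate 1 (adjusted p = 0.245), without WT replicate 2 (0.238) or with free RNA subtracted (0.293), where the log2 fold change was −1.07. Cck in Lamp5 cells stood at 1.21 to 2.04 times free RNA.

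Tac1 encodes substance P and neurokinin A, which act on the receptors Tacr1 and Tacr2, and Pvalb interneurons held it far above free RNA. WT Pvalb cells held 47.7 and 56.8 CPM (58 and 86 UMIs) and KI cells 23.02 and 20.3 CPM (39 and 46 UMIs). Both WT libraries held more than both KI libraries, and the decrease passed (log2 −1.17 ± 0.23, adjusted p = 0.0243 by edgeR). A Tac1 UMI was found in 24.1 and 23.8% of WT and 12.02 and 10.1% of KI Pvalb nuclei, at median depths of 6429, 5706, 7065 and 6130 UMIs. In oligodendrocytes 1.25 to 2.28% of nuclei had a Tac1 UMI.

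Per nucleus, Pvalb cells held 28.1, 26.3, 13.2 and 6.17 times the free RNA of Tac1, so that this decrease was not at the level of free RNA. With free RNA subtracted, the log2 fold change was −1.33 (adjusted p = 0.0465), and Tac1 was the only pair of a subtype and a member that passed. Its call was lost without WT replicate 2 (adjusted p = 0.0969), with nuclei gated one by one on markers (0.0668) and in DESeq2 (0.126), at log2 fold changes of −1.07, −1.38 and −1.17. Over all nuclei Tac1 stood at 4.07, 5.81, 3.32 and 4.8 CPM, with overlapping groups (adjusted p = 0.605).

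Tac2 encodes neurokinin B, the ligand of Tacr3, and was highest in Vip and Cnr1 interneurons. Vip cells held 36.7 and 21.2 CPM in WT libraries and 33.9 and 37.1 in KI, at 10.2 to 35.8 times free RNA, with overlapping groups (adjusted p = 0.826). Cnr1 cells held 7.98 and 9.14 CPM in WT libraries and 13.2 and 24.8 in KI, at 7.398 to 15.2 times free RNA. There both KI libraries were higher, but the difference did not pass (log2 1.27 ± 0.42, adjusted p = 0.197 by edgeR), except without KI replicate 1 (0.0294).

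In Sst interneurons, Tac2 had 0 and 2 UMIs in WT libraries against 18 and 20 in KI. In WT replicate 1 this was 0 of all its Sst nuclei, which allows up to 1.205% of nuclei with a UMI by counting error and sets no limit on the share that expresses the gene, and in KI 5.61 and 3.86% of nuclei had a UMI. Tac2 passed there by edgeR (adjusted p = 0.0171), and the ratio of the pooled CPM of KI to WT was 14.47, with an exact 95% counting interval of 3.74 to 123.8. KI levels were 5.45 and 5.21 times free RNA. The adjusted p was 0.594 without WT replicate 1, 0.295 without WT replicate 2 and 0.0733 with free RNA subtracted, where the mean excess was −0.00199 UMIs per nucleus in WT and 0.0583 in KI.

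Penk and Tac2 were 2 calls of 5 members tested in Sst cells, Tac1 was 1 of 4 in Pvalb cells and Cck 1 of 2 in Lamp5 cells, which makes 4 calls among 18 pairs of a subtype and a member. Penk and Tac2 had enough counts for a test in Sst cells only through the KI libraries, so that they were tested there depended on their being high in KI. All genes passed at 1.35% in Sst, 1.4% in Pvalb and 3.88% in Lamp5 cells. None of 4 members passed in Vip and none of 3 in Cnr1 cells by edgeR, where 0.361% and 0.704% of all genes did, and DESeq2 passed none in any subtype. At an unadjusted p below 0.05 there was 1 member in Vip cells (Penk), beside 10% of all genes, and 1 in Cnr1 cells (Tac2), beside 11%.

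Adcyap1, the precursor of the pituitary adenylate cyclase-activating peptide PACAP, was concentrated in mossy cells. It had 17 and 11 UMIs over 88 and 58 WT nuclei and 7 and 5 UMIs over 53 and 39 KI nuclei, which is 24.3, 21.8, 13.3 and 13.8 CPM and 34.02 to 73.3 times free RNA. Both KI libraries were lower, but the difference did not pass (log2 −0.66 ± 0.50, adjusted p = 0.609). Of the 10 members, Adcyap1 and Cck had enough counts to be tested in mossy cells. Neither passed, where 1.22% of all genes did, none of the members had an unadjusted p below 0.05, where 13.8% of all genes had, and DESeq2 passed none. CA3 neurons held Adcyap1 at 1.21, 1.22, 0.938 and 2.54 CPM.

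Crh, the corticotropin-releasing hormone that excites hippocampal neurons through Crhr1, was highest in Vip interneurons, at 21.6, 11.8, 3.39 and 16.9 CPM from 10, 5, 2 and 10 UMIs in WT and then KI libraries. Those values were 9.44 to 33.5 times free RNA, the groups overlapped, and the counts were under the filter for testing. Nts, neurotensin, had 185 and 233 UMIs over all nuclei in WT and 146 and 290 in KI, with overlapping groups (adjusted p = 0.959). Gal, galanin, was near 0 in every named class but stood at 0.733 UMIs per nucleus in an unnamed cluster of 15 nuclei, with 36 and 3 UMIs over all nuclei in WT and 112 and 94 in KI (log2 2.42 ± 0.78, adjusted p = 0.151). WT replicate 2 stood apart with its 3 UMIs, and without WT replicate 1 the adjusted p was 4.07e-04. None of the 3278 granule neurons of WT replicate 2 had a Gal UMI, which allows up to 0.0915% of nuclei with a UMI by counting error and does not limit the share that expresses Gal.

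Gal did pass in CA1, from 2 and 1 UMIs in WT and 13 and 10 in KI (adjusted p = 0.0338 by edgeR), where the ratio of pooled CPM was 8.117, with an exact 95% counting interval of 2.452 to 42.23. Its CA1 levels were 0.458, 1.59 and 0.889 times free RNA in WT replicate 1 and the KI libraries, and WT replicate 2 had no Gal UMI in its free RNA. The adjusted p was 0.2105 without WT replicate 1 and 0.276 without WT replicate 2. Npy, Penk and Gal higher and Cck lower made 4 calls among the 7 members tested in CA1, where 7.25% of all genes passed. Gal had enough counts for a test there only through its KI libraries, so its place among the tested members depended on its being high in KI. In CA3, Npy and Penk were 2 calls of 4 members tested, where 3.37% passed. Tac2 in CA3 stood at 0.605, 0.305, 2.03 and 2.33 CPM and did not pass (adjusted p = 0.0588).

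In all inhibitory neurons together, none of 9 members tested passed, and 0.0129% of all genes did. Of these members, 6 had an unadjusted p below 0.05, as had 14.7% of all genes, and 1 (Penk) passed in DESeq2. Penk stood at 6.34, 5.96, 15.2 and 18.98 CPM in WT and then KI libraries (log2 1.57 ± 0.21, adjusted p = 0.117 by edgeR, and 0.04598 and 0.0113 without KI replicate 1 or 2). Cluster 30, an inhibitory cluster without a subtype name, held 286 and 3 WT and 4 and 233 KI nuclei, so that it was unequal between the replicates of a genotype. With subtype-named nuclei only, a run added after seeing the data, Penk, Cck and Tac1 passed by edgeR (adjusted p = 0.0153, 0.03604 and 0.0499). The share of all genes passing is not given for that run.

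In fibroblasts, Npy and Cck were tested and neither passed, as 0% of all genes did by edgeR. Npy alone had an unadjusted p below 0.05 (0.02102), as had 6.36% of all genes, and DESeq2 passed none of the members. Penk had 2, 2, 6 and 8 UMIs in fibroblasts, under the filter, at 0.911 to 2.28 times free RNA. The effect in fibroblasts differed from that in granule neurons for none of the members, where 0.586% of all genes did.

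The levels over all nuclei mix cell classes, so that fewer cells of a type and less RNA per cell cannot be told apart there, and they depend on how many cells of each subtype were captured. Vip interneurons were 0.807% and 0.828% of WT and 1.07% and 1.13% of KI nuclei, and Pvalb interneurons were 1.17% and 1.91% of WT and 1.75% and 2.56% of KI nuclei. None of the 5 subtypes differed in share by edgeR (adjusted p = 0.195 to 0.932), and 1, the Vip cells, had an unadjusted p below 0.05 (0.0391). By the exact two-sided permutation test the p-values ran from 0.333 to 1, and 0.333 is the smallest that 2 against 2 mice allow.

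The receptors of these peptides were counted as a list of 23 genes. In granule neurons 1 of 15 tested passed, below the 9.97% of all genes. It was Oprd1, the delta opioid receptor that enkephalins bind, at 7.17, 8.202, 17.4 and 18.6 CPM in WT and then KI libraries (log2 1.36 ± 0.16, adjusted p = 0.00669 by edgeR). Both KI libraries were higher, and the levels were 7.75 to 33.7 times free RNA. In CA1, 3 of 17 passed, where 7.25% of all genes did. Ntsr2, a neurotensin receptor, rose (9.25, 9.397, 17.5 and 19.2 CPM, log2 1.07 ± 0.15, adjusted p = 0.01303). Crhr1, the main receptor of Crh, fell (11.6, 13.2, 6.28 and 6.56 CPM, log2 −0.85 ± 0.18, adjusted p = 0.0399), and Sort1, a sorting receptor that binds neurotensin, fell by 0.41 on the log2 scale (adjusted p = 0.045). The free RNA estimate of Sort1 was lower in KI as well, at 0.423, 0.437, 0.272 and 0.272 UMIs per nucleus in WT and then KI libraries. CA1 neurons held Sort1 at 2.87, 3.24, 4.01 and 3.93 times that estimate.

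In CA3, 1 of 13 receptors passed, beside 3.37% of all genes. Crhr1 stood at 9.802, 10.7, 2.501 and 2.76 CPM (log2 −1.87 ± 0.29, adjusted p = 0.0121), at 3.17 to 18.4 times free RNA. None of the list passed over all nuclei (21 tested), in inhibitory neurons (17), in mossy cells (5) or in fibroblasts (1) by edgeR, where 0.866%, 0.0129%, 1.22% and 0% of all genes passed. At an unadjusted p below 0.05 there were 7, 3, 1 and 0 receptors, beside 24.3%, 14.7%, 13.8% and 6.36% of all genes. The median log2 fold change of the tested receptors was −0.20 in granule and −0.28 in CA1 neurons, beside 0.00 and 0.00 over all genes.

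Of 29 other neuropeptides, 11 were tested in granule neurons and 3 passed, all higher in KI, where 9.97% of all genes passed. Grp, the gastrin-releasing peptide, stood at 14.2, 16.01, 24.4 and 20.4 CPM (log2 0.71 ± 0.17, adjusted p = 0.0485), at 1.93 to 4.57 times free RNA. Avp, vasopressin, had 14 and 9 UMIs in WT and 37 and 31 in KI (log2 2.30 ± 0.33, adjusted p = 0.01201 by edgeR). It stood at 2.48, 7.15 and 6.70 times free RNA in WT replicate 1 and the KI libraries, and WT replicate 2 had no Avp UMI in its free RNA. Vip passed as well (adjusted p = 0.0456) at 0.876 to 1.03 times free RNA. In CA1, Grp moved in the opposite direction, at 12.99, 13.6, 5.897 and 6.48 CPM in WT and then KI libraries (log2 −1.01 ± 0.17, adjusted p = 0.0233), and was the only one of 8 tested that passed, beside 7.25% of all genes. None of 5 passed in CA3, none of 14 in inhibitory neurons, none of 22 over all nuclei and none of 1 in fibroblasts by edgeR, where 3.37%, 0.0129%, 0.866% and 0% of all genes did. At an unadjusted p below 0.05 there were 1, 5, 8 and 0 of them, beside 20.9%, 14.7%, 24.3% and 6.36% of all genes.

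The genes most alike to each member were read over 76 sums (19 classes in 4 libraries, with the cluster led by haemoglobin genes and Ttr as 1 of them) by Pearson's r of log2(CPM + 1), as a description, since the sums of a library share its depth and its free RNA. Npy was most like Atp6ap2 (0.739) and Mdh1 (0.738), where the value in parentheses is r, and Penk like Rprm (0.651) and Scg2 (0.644), of which Scg2 encodes a granin of dense-core vesicles. Pdyn was most like Hba-a2 (0.630) and D030056L22Rik (0.624), Tac1 like Cort (0.552), the cortistatin precursor, and D330023K18Rik (0.532), and Tac2 like Zim1 (0.645) and Vip (0.643), the latter another peptide of Vip interneurons. The other pairs were Glyctk and Cbln4 for Crh, Tusc2 and Kcnc4 for Nts, Cela1 and Slc44a4 for Gal, and 6430531B16Rik and Cpne9 for Adcyap1, at r of 0.552 to 0.682.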

How the data were processed

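The deposited files hold raw UMI counts per gene and nucleus, which the authors made with Cell Ranger against mm10, with no normalization. The members and gene lists were chosen with earlier results of these data known. Nuclei with at least 500 genes, at most 5% mitochondrial UMIs and a doublet score of at most 0.25 were kept, where the score follows Scrublet's method in a version written for these data. They were clustered with scanpy 1.11.5 and leidenalg 0.10.2 without the 10 members (2000 variable genes, 50 components, 20 neighbours, shared-neighbour weights, resolution 2). A cluster was named where at least 3 markers of a class and 50% of its list were raised 2-fold, its median doublet score was at most 0.12, it held at least 50 nuclei and no second class had 90% of its markers raised. This clustering replaced an earlier one with other neighbour weights, whose results were known, because that one changed with the processor's rounding, and Penk in Pvalb cells had passed there and does not here. Because the study tested single nuclei and nuclei are not replicates, counts were instead summed per library and class and tested with edgeR 4.0.16 (filterByExpr, TMM, quasi-likelihood, Benjamini-Hochberg over all genes of a fit, threshold 0.05), R 4.3.3. All 10 members are named. Of the other lists, genes past the threshold are named, and for each member but Cck, whose pair is not reported here, the 2 most correlated genes.

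Replicates of a genotype differed beyond sampling noise (chi-square per degree of freedom of 2.37 to 42.8), so each mouse counted as 1. Same-numbered WT and KI mice are not stated to be paired, and their deviations correlated at −0.03 in granule neurons, −0.04 in CA1 and 0.03 over all nuclei. The correlation ran from −0.24 in inhibitory neurons and −0.20 in OPC to 0.37 in subicular or cortical excitatory neurons and lay between −0.08 and 0.04 in the other classes, so no block was used. Intervals cover counting error only, and a count of 0 was read as up to 3 counts. On simulated counts with 2 libraries a group, the granule neuron step (16373 genes) recovered 68.1% of 91 genes changed by 1 on the log2 scale and 94.5% of 109 changed by 2, and the inhibitory step (15515 genes) recovered 55.6% of 90 and 90.9% of 110. Alternatives were library totals as scaling, DESeq2 1.42.0, no low-count filter, each library left out, a replicate block, a gate per nucleus on markers, doublets kept, a higher minimum of genes and thinned sums. Free RNA subtraction, subtype-named inhibitory nuclei and crossed replicate numbers were added after seeing the data.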

Additional observations from a re-analysis of the deposited data

Results flagged for a closer look

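In 3 tests of a difference between cell classes, the effect of the genotype on a peptide differed past the threshold, each computed by edgeR on the sums of both classes with the library as a block. Over all genes, 14% passed for granule against CA1 neurons and 4.79% for granule against inhibitory neurons. No member passed for granule against CA3 neurons or for fibroblasts against granule neurons, where 9.93% and 0.586% of all genes did. The log2 effect on Penk was 2.21 larger in DG granule neurons than in CA1 pyramidal neurons (adjusted p = 5.07e-06), and it stood at 1.97 to 2.46 whichever library was left out. It was 1.46 larger in DG granule neurons than in inhibitory neurons (adjusted p = 0.00773, and 0.0614 without WT replicate 2). The log2 effect on Npy was 0.85 larger in DG granule neurons than in inhibitory neurons (adjusted p = 0.0211), and the adjusted p was 0.109 without WT replicate 1 and 0.133 without WT replicate 2. Granule neurons held Npy at 0.9401 to 1.18 times free RNA.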

How the results depend on the processing

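The number of members called moved with the settings in most classes, and the cause was not tested. The share of all genes passing is given for the main fits only. The counts under other settings thus do not tell the members from genes at large. Over all nuclei (2 called) it was 6 with DESeq2, 4 without the low-count filter and 3 to 5 with a library left out (5 without KI replicate 1 or KI replicate 2). In granule neurons (3) it was 6 without the filter, 2 to 6 with a library left out (6 without KI replicate 2) and 1 with free RNA subtracted. In CA1 (4) it was 2 with DESeq2, 2 with the gate per nucleus, 1 to 4 with a library left out (2 without WT replicate 1, 1 without WT replicate 2) and 0 with free RNA subtracted. In CA3 (2) it was 2 to 4 with a library left out (4 without KI replicate 2) and 0 with free RNA subtracted, and in mossy cells (0) it was 1 with the gate. In inhibitory neurons (0) it was 1 with DESeq2, 5 without the filter, 1 with the gate, 3 with subtype-named nuclei and 0 to 6 with a library left out (1 without KI replicate 1, 6 without KI replicate 2). Over subtypes (4) it was 0 with DESeq2, 1 with the gate, 1 with free RNA subtracted and 0 to 7 with a library left out (2 without WT replicate 1, 0 without WT replicate 2, 7 without KI replicate 2). With a library left out, the effect on 1 to 2 members differed between granule and CA1 neurons (1), on 0 to 1 against CA3 (0) and on 0 to 3 against inhibitory neurons (2, with 1 without WT replicate 1 and 0 without WT replicate 2).

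The replicate number is not stated to pair the mice. With the replicate block, 6 members passed over all nuclei and 6 in granule neurons, Cck in Lamp5 cells lost its call (adjusted p = 0.0556), and no subtype share passed. In inhibitory neurons, where same-numbered deviations correlated at −0.24, crossed replicate numbers gave 5 calls. No share of all genes passing is given beside the calls with the replicate block or with crossed numbers. Signs turned for Penk in CA1 with free RNA subtracted (−0.54) and, among the differences between classes that did not pass, for several members. These included Cck in granule against CA1 neurons (from 0.00735 to −0.0482 with library totals and −0.103 to 0.0852 with a library left out), Npy in granule against CA3 neurons (−0.148 to 0.0465) and Npy in fibroblasts against granule neurons (−0.20 to 1.34), beside differences for Pdyn, Tac1, Tac2, Gal, Nts and Adcyap1 and Cck in fibroblasts, such as Gal in granule against CA1 neurons (from −0.60 to 3.77 without WT replicate 1). With library totals, the median log2 fold change of all genes was −0.14 in granule neurons, −0.11 in mossy cells, −0.10 in inhibitory neurons, −0.13 in Sst and −0.11 in Pvalb cells. With TMM it lay between −0.00399 and 0.0116 in these classes, and no direction of a called member flipped with library totals. Penk in granule neurons kept its direction and call in every alternative run. Counts of UMIs limit Gal, Crh and Adcyap1, which were under the filter in most classes.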

Other observations

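Among clusters of at least 50 nuclei, Nts had its highest level per nucleus in a cluster of 497 nuclei that markers did not name, with Skint1, Fn1 and Stac among its leading genes. It held 29, 28, 33 and 48 Nts UMIs in WT and then KI libraries, which is 46.8, 32.4, 39.3 and 37.01 CPM and 16.5 to 60.9 times free RNA, and 21.6% to 29% of its nuclei had a UMI. WT and KI libraries overlapped there. A smaller cluster of 32 nuclei without a name held more, at 0.406 Nts UMIs per nucleus. Of the clusters of at least 50 nuclei, Penk was highest in one of 54 inhibitory neurons without a subtype name. Its 7, 9, 3 and 35 nuclei held 5, 4, 1 and 42 Penk UMIs, which is 52.5, 45.6, 5.06 and 23.2 times free RNA, so that most of its nuclei and UMIs came from KI replicate 2. An unnamed cluster of 15 nuclei, with 3, 1, 6 and 5 from WT and then KI libraries, held more Penk, Npy, Cck and Gal than any other cluster, at 4.33, 6.93, 1.73 and 0.733 UMIs per nucleus, and Slc6a5, Gal and Wfs1 were among its leading genes.

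Cort, the cortistatin precursor, was lower in KI Sst interneurons, with 25, 33, 6 and 3 UMIs in WT and then KI libraries (log2 −2.90 ± 0.47, adjusted p = 0.00721 by edgeR). Vip in Cnr1 interneurons was higher in KI, at 20.3, 36.6, 63.8 and 57.05 CPM (log2 1.22 ± 0.26, adjusted p = 0.0193) and 4.09 to 7.38 times free RNA. Vip also passed in Vip interneurons (log2 0.78 ± 0.16, adjusted p = 0.0118 by edgeR), at 37.2 to 52.98 times free RNA. Vip was a marker used to name that class and was not left out of the clustering. Neither its level nor its call there is independent of the naming. Ntsr2, which rose in CA1, was lower in KI in CA2 pyramidal neurons, at 98.2, 86.2, 34.9 and 53.96 CPM (log2 −1.02 ± 0.21, adjusted p = 0.0293), and a difference between CA1 and CA2 was not tested. These genes were named from their values.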
